A study of Mus musculus with 36 samples.

Results

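Immediate early genes are switched on within minutes of a stimulus without new protein synthesis, by factors already bound at their promoters. Serum response factor with its Elk partners, which ERK phosphorylates, and CREB, which kinases below ERK and p38 phosphorylate, are the best known of these factors. The messages are short-lived, so their level follows the signal of the moment, and in heart muscle stretch, adrenergic stimulation and ischaemia raise them. The genes described here are 8 members of this class outside the AP-1 family, chosen by name: Egr1, Egr2, Egr3, Ier2, Ier3, Ier5, Btg2 and Nr4a1. They are 8 of 12627 genes tested, and the array carries them on 13 of its 45101 probe sets. For each gene the probe set with the highest mean signal over all arrays was used, and all 8 passed the filter on low signals.

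The samples were 36 left ventricle RNAs from mice on a C57black background, 1 array per sample, measured on an Affymetrix whole-genome mouse array that reads each gene with 1 or more probe sets. HRas-v12 is an always active Ras, which feeds ERK among other pathways, MKK3bE an active kinase upstream of p38, and MKK7D an active kinase upstream of JNK. Each sat as a floxed transgene behind the alpha myosin heavy chain promoter, which is active in heart muscle cells, and was combined with Mer-Cre-Mer under that same promoter. Mer-Cre-Mer is Cre flanked by altered estrogen receptor domains and works once tamoxifen binds them. All mice, controls included, were given tamoxifen at 20 mg/kg on each of 3 days at 12 weeks of age. Early hearts were taken 4 to 7 days after the first dose and late hearts at 2 to 4 weeks. Controls were littermates without transgenes, so the floxed transgene, Mer-Cre-Mer and the active kinase or Ras cannot be told apart in any comparison with them. The 3 male and 3 female shared controls carry no time in their labels and serve HRas-v12 (2 female and 3 male early arrays, 3 of each sex late) and MKK3bE (2 female early, 3 male late and 2 female late). The MKK7D line has females only, with 3 transgenic and 3 control arrays at each time. Nothing in the labels says that arrays of a group came from separate animals, so p-values measure the spread between these arrays, which may be technical.

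The labels were checked first. Esr1, the estrogen receptor gene whose sequence Mer is taken from, read 294 to 7943 in the shared controls and at least 12437 in 21 of 24 transgenic arrays. It stood at 688 in the library labelled HRas-v12 female early replicate 3, at 2915 in HRas-v12 male late replicate 1 and at 1327 in male late replicate 3. In the MKK7D late controls it read 106402 in replicate 8, 91291 in replicate 9 and 953 in replicate 10. Among the early MKK7D controls, all labelled female, replicate 1 read 1220.3 for Xist and 6018 for the Y-linked Eif2s3y, while the other 2 arrays read 24766 and 23928 for Xist. Calls of the 8 genes are therefore given with all arrays and again without these 6, and counts over other gene lists without them where they differ by more than 1.5 times. Heart muscle marker genes were bright on every array, and the summed signal of 10 of them ran from 941274 to 2051810.

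RefSeq promoter sequences were at hand for 5 of the 8 genes, on build GRCm38.p6. The 250 bases before each annotated start were searched on both strands for the CArG box that serum response factor binds, the cyclic AMP response element TGACGTCA that CREB binds, its core TGACG (which the full element contains), the Egr site GCGNGGGCG and the AP-1 site TGANTCA. Of 32851 such windows in the genome, 1.47% held a CArG box, 1.55% the full element, 17.8% the core, 4.7% the Egr site and 6.75% the AP-1 site. Egr2, a gene of the Egr trio with large changes, had a CArG box in 4 of its 5 windows, 3 of which overlap. The 2 different boxes are shown with matches in capitals, within chr10:67537486-67537515 and chr10:67537789-67537818 on the plus strand, the second also with the TGACG core on its minus strand.
Egr2 first: gatcttctCCTTTTTTGGaaagtctcggag
Egr2 second: tcctcagtCCATATATGGgcagcgaCGTCA
Nr4a1 had 4 TGACG cores and 1 Egr site, each read on the minus strand. The Egr site and the core nearest the start lie in chr15:101266784-101266813, plus strand.
Nr4a1: ggCGCCCCCGCccctctccatgCGTCAcgg

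Btg2 and Ier5 are shown whole because they were the 2 members called in the early MKK7D hearts and differed in the HRas-v12 hearts. Both lie on the minus strand of chromosome 1, at chr1:134079156-134079405 for Btg2 and chr1:155099637-155099886 for Ier5, and both are printed in the direction of the gene. Counted from the start, Btg2 held the full cyclic AMP response element at -166 and an Egr site at -131, both in capitals. Neither the Ier5 window nor that of Ier3 held any of the 5 motifs. These matches are descriptions of letters, and binding was not measured.
Btg2: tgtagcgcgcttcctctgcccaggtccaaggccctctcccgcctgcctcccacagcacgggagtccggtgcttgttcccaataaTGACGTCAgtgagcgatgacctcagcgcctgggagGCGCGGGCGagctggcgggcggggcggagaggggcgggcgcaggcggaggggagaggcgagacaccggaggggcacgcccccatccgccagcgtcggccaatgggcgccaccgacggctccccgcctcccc
Ier5: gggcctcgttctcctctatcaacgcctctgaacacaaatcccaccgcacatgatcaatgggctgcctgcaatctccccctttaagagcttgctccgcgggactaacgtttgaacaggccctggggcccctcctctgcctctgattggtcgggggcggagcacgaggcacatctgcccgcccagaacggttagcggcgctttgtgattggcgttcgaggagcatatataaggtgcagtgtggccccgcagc

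Across the 13 groups all 8 genes differed by the limma F-test, where 53.5% of all genes tested were called. Ier5 had the smallest adjusted p of the 8 (limma, 6.11e-05) and Ier2 the largest (0.0109). Against control, 7 of the 8 rose in early HRas-v12 hearts, Ier5 and Btg2 rose in early MKK7D hearts, and Egr2, Egr3, Ier5 and Nr4a1 rose in late MKK3bE hearts. These lists of calls do not show that the lines differ. In the direct tests between lines with all arrays, Ier5 was the 1 member called. No member was called lower in any line against its control.

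**Figure D1:**
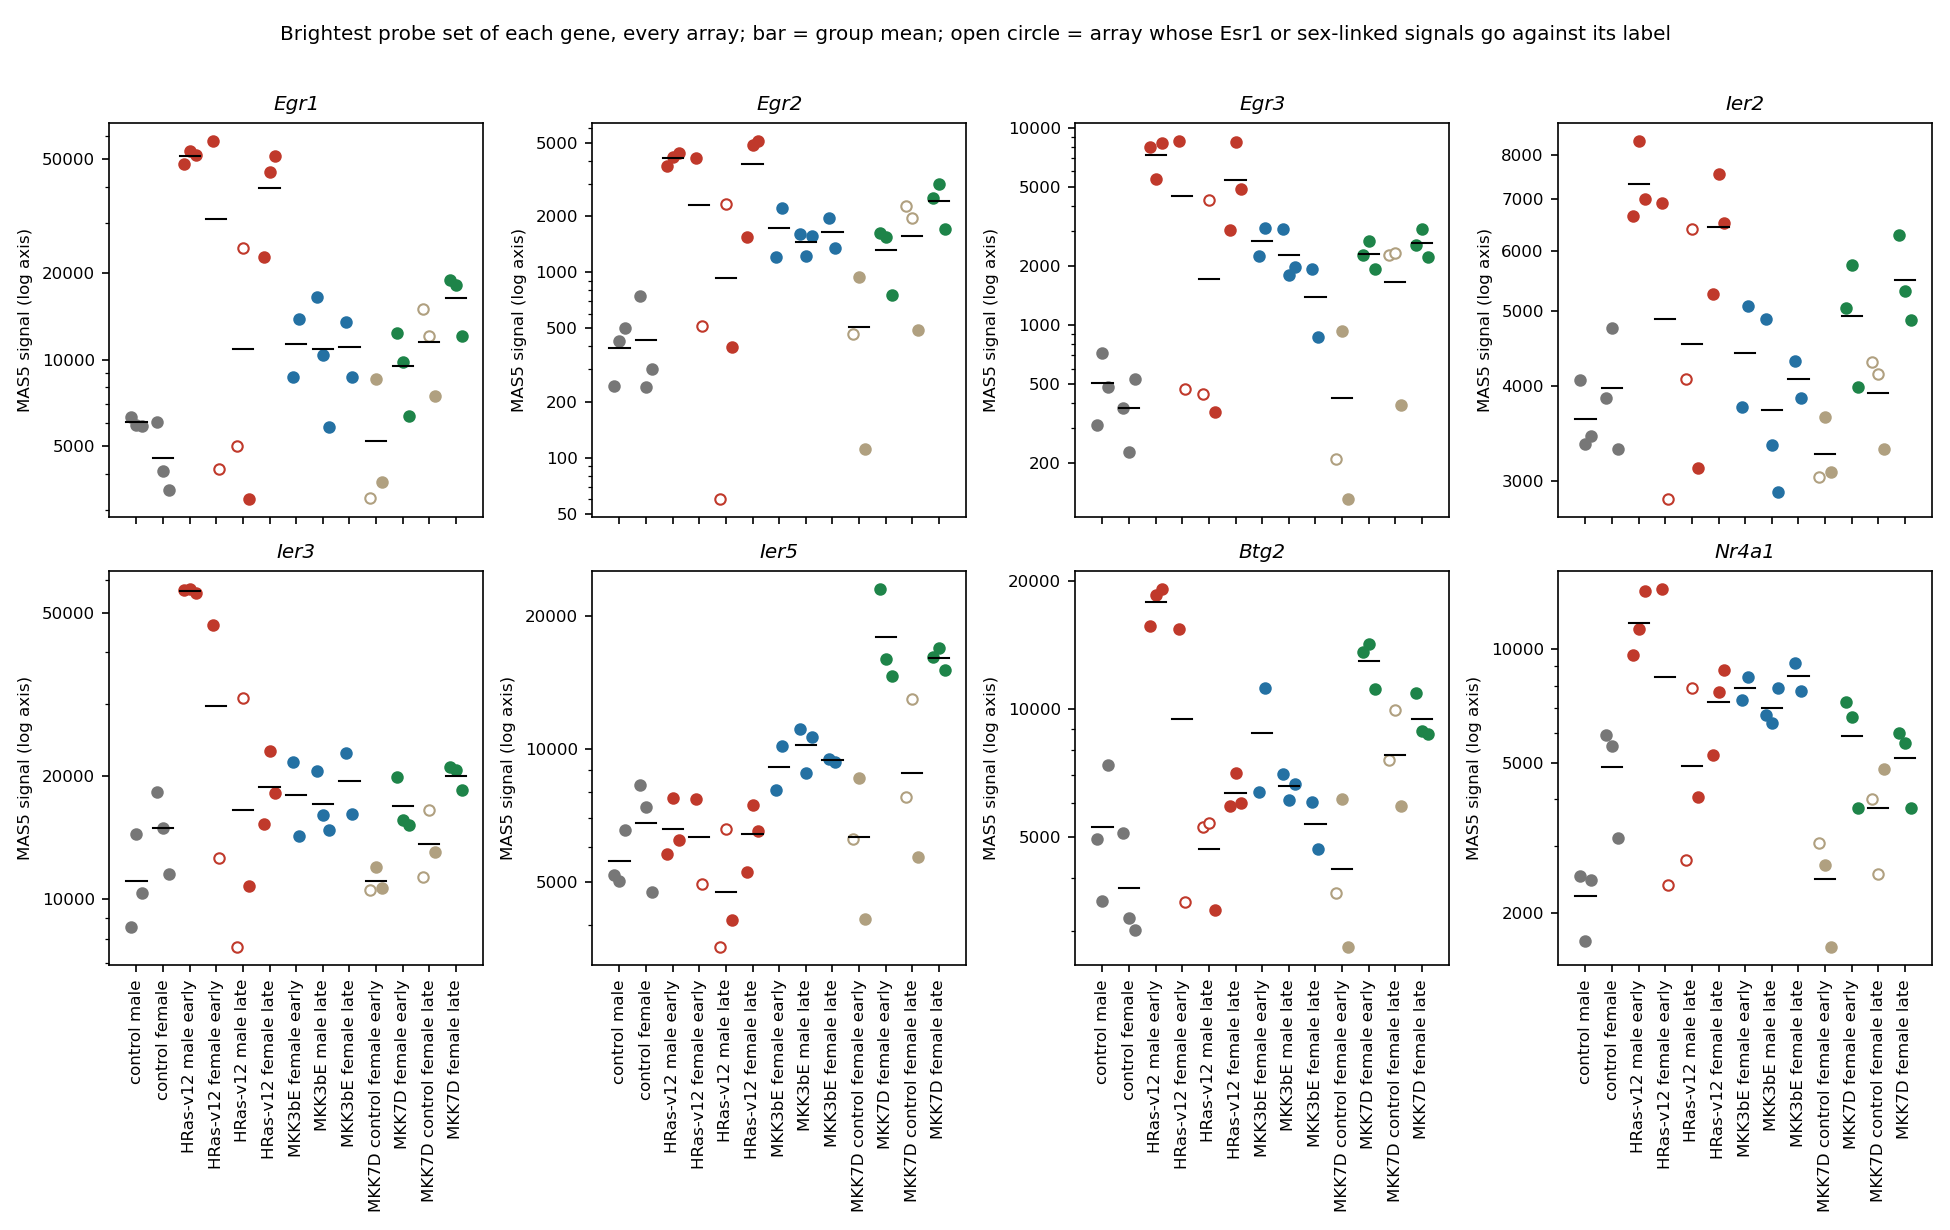
MAS5 signal (log axis) of the brightest probe set of each of the 8 genes on every array, by group; each point is 1 array, the bar is the group mean, and open circles are the 6 arrays that go against their labels. Egr1 reads 48179 to 57846 in 4 of the 5 early HRas-v12 arrays and 3506 to 6315 in the shared controls, while Ier5 is highest in the MKK7D arrays.

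The early HRas-v12 comparison asks how hearts of this line differ from the shared controls within days of tamoxifen. It cannot separate the active Ras from the floxed transgene or Mer-Cre-Mer, which the controls also lack. Egr1, a zinc finger transcription factor and the best known target of ERK through Elk, read 48179, 53242 and 51686 in the male arrays and 57846 and 4170.5 in the female arrays. Control males read 6315, 5937 and 5872 and control females 6058, 4098 and 3506. Apart from female early replicate 3, which lay among the controls, the transgenic arrays were far above every control. The log2 change was 2.44 (SE 0.48, 5.42-fold, limma adjusted p = 0.000502).

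Egr3, the family member that follows Egr1 in many cells, read 7966, 5518 and 8380.5 in males and 8570.3 and 472 in females. Its controls lay between 228 and 721, below every transgenic array except female replicate 3, which lay among them. On the brightest probe sets its log2 change of 3.11 was the largest of the 8 genes in this comparison (SE 0.61, 8.64-fold, limma adjusted p = 0.000494). The second Egr3 probe set stood at -0.13 and the second Egr2 probe set at 3.28. Egr2, also known as Krox20, read 3749 to 4412 in males, 4109.7 and 511 in females and 239.8 to 748 in controls. Its level was 6.07-fold higher (log2 change 2.60, SE 0.61).

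Of the Ier genes, whose name stands for immediate early response, Ier3 is a regulator of survival signalling that ERK phosphorylates. Ier3 read 56701, 57201 and 55958 in males and 46681 and 12576 in females, against 8534 to 18281 in controls. It rose 2.94-fold (log2 change 1.55, SE 0.28, limma adjusted p = 0.000196). Ier2 rose 1.51-fold, the smallest rise among the called members, from 3307 to 4755 in controls to 6662 to 8348 in males and 6928 in female replicate 1. Female replicate 3 read 2848 for Ier2, the lowest of all 36 arrays.

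Ier5, which recruits protein phosphatase 2A and takes part in the heat shock response, behaved otherwise. Its signals were 5806, 7758 and 6249 in males and 7731 and 4969 in females, within the control range of 4748 to 8310. On this probe set none of the 5 early or the 6 late HRas-v12 arrays lay above the highest control. On the second Ier5 probe set, whose highest control was 2000.3, 2 of 5 early and 4 of 6 late arrays did. The log2 change of Ier5 was 0.07 (SE 0.21, limma adjusted p = 0.83).

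Btg2, an antiproliferative partner of the CCR4-NOT deadenylase and a p53 target, read 15744, 18621 and 19219 in males and 15484 and 3519 in females. Controls lay between 3020.5 and 7368, and the rise was 2.65-fold (log2 change 1.41, SE 0.27). Nr4a1, the orphan nuclear receptor Nur77, read 9671, 11323 and 14242 in males and 14462 and 2368 in females, against 1685 to 5918 in controls (2.56-fold, log2 change 1.36, SE 0.32). In both genes the 4 higher arrays cleared every control and female replicate 3 did not.

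In all, 7 of 8 members were called higher, where 15.1% of all genes tested were, and the members' median log2 change was 1.48 beside -0.04 over all genes. With the 6 arrays left out 7 were again called, Ier5 again excepted (background 19.6%), and the changes were larger: 3.38 for Egr1, 4.13 for Egr3 and 1.94 for Btg2. Leaving out female early replicate 1, so that only the discordant female array stands for its sex, left 4 members called and ended the calls of Egr2, Ier2 and Nr4a1. In a bulk ventricle sample, more cells of a type and more message per cell cannot be told apart. Marker genes of several cell types moved in the same arrays: all 10 heart muscle markers and 7 of 9 endothelial markers were called lower (18.7% of all genes were), and 8 of 10 macrophage markers higher. Fibroblast markers went both ways, with 5 of 10 higher and 1 lower (Col1a1 3.85-fold higher, Gsn 2.19-fold lower), as did smooth muscle and pericyte markers, with 3 of 7 higher and 1 lower (Cspg4 3.43-fold higher, Rgs5 1.8-fold lower). The summed macrophage signal was 190465 to 231524 in HRas-v12 males early, 59943 to 148221 in females, and 63502 to 94158 in the shared controls. The summed heart muscle signal was 941274 to 1125339 in those males, 961536 to 1421607 in those females and 1518146 to 2051810 in the shared controls, and no marker of these lists read 0. The part of these shifts in the members' changes was not tested.

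**Figure D2:**
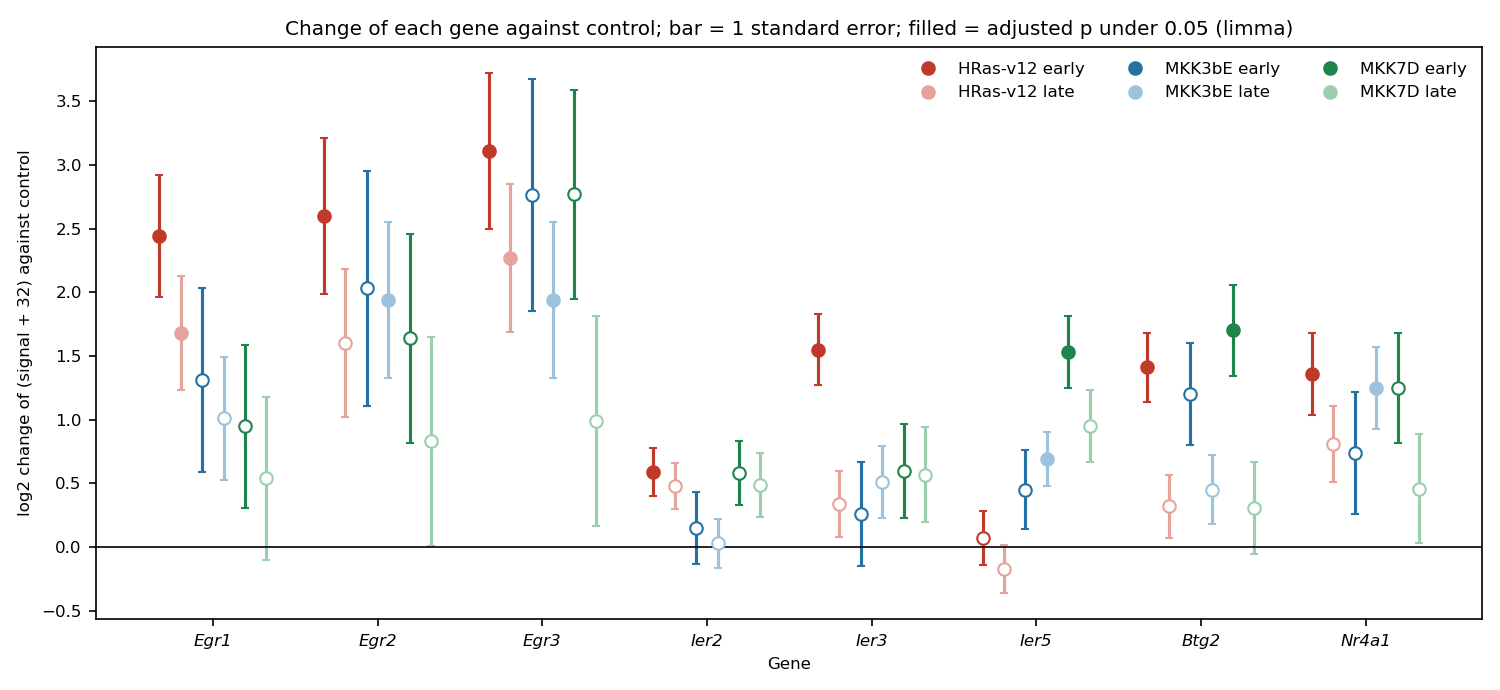
Log2 change of (signal + 32) of each of the 8 genes against control, by line and time, with 1 standard error; filled points have a limma adjusted p under 0.05. On these brightest probe sets Egr3 has the largest change in early HRas-v12 hearts (3.11), and Ier5 is near 0 there (0.07) and at 1.53 in early MKK7D hearts.

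Other genes of the same circuitry were described by counts, from lists chosen with results of these data known. Over all genes tested, 15.1% were called higher and 18.7% lower. Among relatives of the members, 2 of 10 rose and 2 fell, near those shares. Nab2, a corepressor that Egr1 induces and that then restrains it, was 3.09-fold higher, and Nr4a3, an orphan receptor close to Nr4a1, was 3-fold higher. Among AP-1 genes, 2 of 8 rose and 1 fell, with Fos 3.57-fold higher and Jun 1.81-fold lower, and 4 rose without the 6 arrays. Of 38 further immediate early genes 13 rose and 9 fell, a mixed list in which Zfp36, which speeds decay of unstable messages, was 1.99-fold higher and Dusp1, a nuclear MAP kinase phosphatase, 1.77-fold lower. By contrast, 7 of 12 ERK feedback and delayed target genes rose and none fell, led by Spred1 at 4.53-fold and Spry4 at 3.5-fold.

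Genes known to be bound by Egr1 were also mixed: 7 of 12 rose and 3 fell, and Thbs1, a matrix protein gene, was 6.74-fold higher. Of 16 factors and kinases that switch immediate early genes on, 1 rose and 3 fell. For these 16 factors and kinases the counts were close to or below the 15.1% higher and 18.7% lower over all genes. Among those that fell were Rps6ka5 (MSK1, a kinase of CREB and histone H3), 2.22-fold lower, and the coactivator Ep300, 1.25-fold lower.

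In late HRas-v12 hearts the arrays of the 2 sexes overlapped, and the direct test of the sexes below called no member with all arrays. Egr1 stood at 22706, 44888 and 51369 in females, all above controls, and at 5002, 24472 and 3279 in males, of which only replicate 3 was above them. Egr3 read 3013, 8478 and 4866 in females and 447, 4298 and 361 in males, the same split. Over both sexes the log2 change was 2.27 for Egr3 (SE 0.58, 4.83-fold, limma adjusted p = 0.0204) and 1.68 for Egr1 (SE 0.45, 3.2-fold, limma adjusted p = 0.0257). The second Egr3 probe set stood at 0.18.

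The other 6 members were not called late. Egr2 stood at 1.60 on the log2 scale (SE 0.58), Nr4a1 at 0.81 (SE 0.30), Ier2 at 0.48 (SE 0.18), Ier3 at 0.34 (SE 0.26), Btg2 at 0.32 (SE 0.25) and Ier5 at -0.17 (SE 0.19), which was 0.21 with the mean of all probe sets of a gene. Nr4a1 read 5231, 7701 and 8821 in females and 2763, 7906 and 4062 in males, overlapping the control range of 1685 to 5918. Thus 2 of 8 members were called, where 4.88% of all genes were called higher, and 5 had an unadjusted p under 0.05. The median over the members was 0.64 and over all genes 0.02.

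The male late arrays do not follow Esr1. Replicate 4, with the highest Esr1 signal of all arrays (155949), had Egr1 at 3279 and Egr3 at 361, both at control level, and replicate 3, with Esr1 at 1327, had them raised. Once the 6 arrays are left out only replicate 4 stands for the males, assumed to vary like the other groups, and 1 member, Egr3, was called higher (background 0.673%). No member was called when control female replicate 1, HRas-v12 female late replicate 3 or male late replicate 3 was left out, 1 without female late replicate 4, and 4 without male late replicate 1. With a replicate block, or with only the groups compared in the fit, 0 were called.

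The difference between the sexes in the late HRas-v12 change was tested directly. Egr1 stood at -2.78 (male minus female change, log2, SE 0.91), Egr2 at -2.88 (SE 1.16) and Egr3 at -2.81 (SE 1.16). None was called (limma adjusted p = 0.428 for Egr1), and 0% of all genes tested were. In the fit without those 6, Egr1 (-3.94) and Egr3 (-4.06) were called, where 3.88% of all genes were. In the early hearts no member was called for a difference between the sexes (1.11% of all genes), with Nr4a1 at 2.08 (SE 0.64) and Ier3 at 1.66 (SE 0.55). Leaving out HRas-v12 female early replicate 1 leaves replicate 3, with Esr1 at 688, as the only early female of that line. Calls of that fit rest on this 1 discordant array. The control groups themselves differed in no called member (0.0317% of genes). Nr4a1 read 2506, 1685 and 2440.5 in control males and 5918, 5532 and 3161 in control females, without overlap (log2 difference -1.10, male minus female, SE 0.43, limma adjusted p = 0.41).

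Late against early HRas-v12 hearts, Ier3 and Btg2 fell. Ier3 read 46681 to 57201 in the 4 concordant early arrays and 7655 to 30983 late, a log2 change of -1.22 (SE 0.28, limma adjusted p = 0.00541). Btg2 read 15484 to 19219 in those early arrays and 3364 to 7088 late, without overlap (-1.09, SE 0.27, limma adjusted p = 0.00984). Late Btg2 lay wholly within the control range of 3020.5 to 7368, while late females still held Egr1 well above controls. So 2 of 8 members were called lower, where 4.66% of all genes were. Leaving out the 6 arrays leaves 1 early female and 1 late male array to stand for their sexes, so calls of that fit rest on single arrays. Leaving out female early replicate 1 ended both calls, leaving out female early replicate 3 raised the count to 5, and with only these groups fitted or with the replicate block it was 0.

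Relatives and circuitry genes in the late HRas-v12 hearts held part of the early pattern. Over all genes, 4.88% were called higher and 4.72% lower in these late hearts. Nab2 was 2.04-fold higher and Ier5l 1.5-fold higher, 2 of 10 relatives with 1 lower. ERK feedback genes numbered 6 of 12 higher, with Spred1 at 3.03-fold and Spry4 at 2.74-fold, and without the 6 arrays 2 of 12. Of the Egr1-bound genes 5 of 12 rose and 1 fell (Thbs1 5.08-fold higher), 2 higher and 0 lower without the 6 arrays, and no AP-1 gene was called. Further immediate early genes numbered 3 of 38 higher and 1 lower, with Bhlhe40, a clock-linked repressor, 1.72-fold higher and Id1 1.43-fold lower. Of the 16 switching factors and kinases only Elk1 was called, 1.62-fold higher, and none without the 6 arrays. For relatives that fit called 1 higher and 0 lower, and for the further immediate early genes 2 higher and 0 lower. Heart muscle markers were lower in 7 of 10 (4.72% of all genes were lower), among them Actc1 at 1.32-fold, and macrophage markers were mixed, 1 of 10 higher and 1 lower. Fibroblast markers were higher in 3 of 10 (Col3a1 1.95-fold, Mgp 1.76-fold), endothelial markers lower in 2 of 9 (Fabp4 1.41-fold, Kdr 1.48-fold), and among pericyte and smooth muscle markers Cspg4 was 2.37-fold higher and Rgs5 1.69-fold lower. Without the 6 arrays, 0 heart muscle, macrophage, fibroblast and endothelial markers were called and 1 of 7 smooth muscle and pericyte markers was higher. The summed fibroblast signal was 523826 to 715338 in late females and 317893 to 584884 in late males, against 348100 to 443301 in the shared controls. The summed macrophage signal spanned 52757 to 289424 over the 3 late males, and the part of these shifts in the members' values was not tested.

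In early MKK3bE hearts, known here from 2 female arrays, the trio of Egr genes was high but not called. Egr3 read 2239.8 and 3095 against 228 to 533 in control females (log2 change 2.76, SE 0.91). Egr2 read 1214 and 2236 against 239.8 to 748 (2.03, SE 0.92), and Egr1 8726 and 13907 against 3506 to 6058 (1.31, SE 0.72). In each of these genes both transgenic arrays lay above all 3 control females.

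Btg2 read 6371 and 11237 against 3020.5 to 5106 (1.20, SE 0.40), also without overlap. Nr4a1, at 7333 and 8455, lay above all 6 shared controls as well (0.74, SE 0.48). The remaining members had an array among their controls: Ier5 at 0.45 (SE 0.31), Ier3 at 0.26 (SE 0.41) and Ier2 at 0.15 (SE 0.28). In this limma fit 0 of 8 members were called, where 3.49% of all genes were called higher, and 3 had an unadjusted p under 0.05. None of the 6 arrays is in these groups, but the spread is pooled over all groups, and in the fit without them 4 were called: Egr1, Egr2, Egr3 and Btg2 (background 7.98%). With only the groups compared in the fit 4 were called, and with array weights 3. Genes called in either direction, of 12627, rose as well, from 797 to 1284 and 2058 in those fits. Elsewhere in the circuitry Fosl2, an AP-1 gene, was 2.52-fold higher, Myc 6.73-fold, Bhlhe40 2.03-fold and Thbs1 10.1-fold, while Vegfa was 1.65-fold lower. Fibroblast markers were called higher in 4 of 10, with sums of 580870 to 674290 against 357983 to 443301 in control females, and their part in the members' values was not tested. Without the 6 arrays that count was 6 with 1 lower, 3 of 10 heart muscle and 3 of 9 endothelial markers were lower, and 1 of 10 macrophage markers was. Of 12627 genes that fit called 2079 in either direction, 1008 of them higher. The same fit called 4 of 8 AP-1 genes and 2 of 12 ERK feedback genes higher, 7 of 38 further immediate early genes higher and 2 lower, 3 Egr1-bound genes higher and 2 lower, and 1 switching factor lower.

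Late MKK3bE hearts, with 3 male and 2 female arrays, had 4 members called higher, where 5.08% of all genes were. Nr4a1 read 6691, 6382 and 7909 in males and 9198 and 7747 in females, all above the highest control of 5918 (log2 change 1.25, SE 0.32, 2.38-fold, limma adjusted p = 0.0137). Ier5 read 11151, 8852 and 10649 in males and 9536 and 9361 in females, above the highest control of 8310 (0.69, SE 0.21, 1.61-fold, limma adjusted p = 0.0329). Egr2 and Egr3 cleared their controls in all 5 arrays too, Egr2 at 1230.5 to 1951 and Egr3 at 869 to 3072 (3.83-fold and 3.84-fold, limma adjusted p = 0.0423 and 0.0413). The second Egr3 probe set stood at 0.06 on the log2 scale.

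Egr1 was higher than every control in 4 of 5 arrays, at 5838 to 16585, and stood at 1.01 on the log2 scale (SE 0.48, not called). Ier3 (0.51, SE 0.28), Btg2 (0.45, SE 0.27) and Ier2 (0.03, SE 0.19) were not called. Ier2 read 2902 to 4884 here, across the control range of 3307 to 4755. The members' median was 0.85 beside -0.01 over all genes.

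Leaving out any 1 of the 11 arrays compared left 0 to 3 of the 4 calls. Nr4a1 was called in 10 of those 11 fits and lost its call without MKK3bE female late replicate 2, whereas Egr2 and Egr3 were each called in 1. With no filter on low values 2 were called, with the replicate block 0, and without the 6 arrays 6, when Egr1 and Ier3 joined (background 9.44%). No array of this comparison is among the 6. Macrophage markers had 0 of 10 called in the fit with all arrays and 6 of 10 higher without the 6, with sums of 90411 to 140631 against 63502 to 94158 in the shared controls.

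Beside the members, 9 of 38 further immediate early genes were higher and 1 lower in late MKK3bE hearts, with Cebpd 2.74-fold and Bhlhe40 1.89-fold higher. Over all genes, 5.08% were called higher. Fosl2 and Mafk, 2 of 8 AP-1 genes, were 1.96-fold and 1.54-fold higher. Only 1 of 12 ERK feedback genes, Spry1, was called (1.87-fold higher). Rps6ka5 was 1.88-fold lower and Crebbp 1.17-fold higher among the switching factors (5.38% of all genes were lower). Thbs1 was 4.15-fold higher and Pdgfb 1.44-fold lower among Egr1-bound genes. Fibroblast markers were higher in 4 of 10, with summed signals of 452657 to 603070 against 348100 to 443301 in shared controls, and their part in the members' changes was not tested. Without the 6 arrays 8 of 10 fibroblast markers were higher, 3 of 10 heart muscle markers and 1 of 9 endothelial markers lower, and 1 of 7 smooth muscle and pericyte markers higher, with 1 lower in both fits. Of 12627 genes the fit without the 6 arrays called 2581 in either direction, 1192 of them higher. The same fit called 5 AP-1 genes and 3 ERK feedback genes higher, 2 Egr1-bound genes in each direction, and 2 switching factors lower with 1 higher. Between the sexes (0.00792% of genes called) and between late and early MKK3bE females (0.00792%) no member was called. Btg2 and Egr3 stood lower late than early by -0.67 (SE 0.44) and -1.01 (SE 1.00).

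The HRas-v12 and MKK3bE lines share their control arrays, and were set against each other directly. Among early females no member was called (1.78% of all genes were). Leaving out the 6 leaves 1 HRas-v12 early female, in which Egr1 stood 2.39 and Ier3 1.41 higher on the log2 scale. Late, Ier5 was lower in HRas-v12 than in MKK3bE hearts, by a log2 difference of -0.85 (SE 0.21, 1.81-fold, limma adjusted p = 0.0156). It was 1 of 8 members called lower, where 2.04% of all genes were. The highest late HRas-v12 Ier5 signal was 7470.3 and the lowest late MKK3bE signal 8852. That call ended when either of the 2 late MKK3bE female arrays was left out.

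In early MKK7D hearts Ier5 and Btg2 rose. Ier5 read 23101, 16050.1 and 14668 in transgenic females and 6273, 8598 and 4127 in their controls, a gap with no overlap (log2 change 1.53, SE 0.28, 2.89-fold, limma adjusted p = 0.0179). Btg2 read 13664, 14226 and 11134 against 3693, 6143 and 2756, also without overlap (1.70, SE 0.36, 3.24-fold, limma adjusted p = 0.044). Only 11 of 12627 genes were called higher here, 0.0871%, and 4 of these are immediate early genes: Ier5, Btg2, Fosl2 (3.43-fold) and Bhlhe40 (3.38-fold). The members and lists that hold these genes were chosen with earlier results of these data known, so this count is no test of enrichment.

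On the brightest probe sets Egr3 had the largest change of the members in this comparison but was not called. It read 2254, 2648 and 1931 in transgenic arrays and 209.8, 934 and 132 in controls (2.77, SE 0.82, limma adjusted p = 0.143). The second Egr3 probe set stood at 0.58. Control replicate 2 was the highest control for 7 of the 8 members. Nr4a1 (1.25, SE 0.43), Ier2 (0.58, SE 0.25) and Ier3 (0.60, SE 0.37) also had no overlap between groups and no call. Egr1 read 12426, 9807 and 6355 against 3288, 8542 and 3751, which overlap (0.95, SE 0.64), as did Egr2 (1.64, SE 0.82).

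Control replicate 1 is among the 6 arrays, and without those 4 members were called: Egr3 (2.53), Ier5 (1.56), Btg2 (1.64) and Nr4a1 (1.43), where 0.649% of all genes were. The calls rest on few arrays: none was left without control replicate 1, control replicate 3 or transgenic replicate 5, and 1 without transgenic replicate 6 or 7. The relatives, switching factors, ERK feedback genes and Egr1-bound genes had 0 called members in either direction with all arrays, and without the 6 arrays 2 of 12 Egr1-bound genes, 2 AP-1 genes and 4 of 38 further immediate early genes were higher. Heart muscle, endothelial, fibroblast and macrophage markers had none in either fit. The summed macrophage signal was 56840 to 68766 in these transgenic arrays and 74590 to 95330 in their controls.

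Late MKK7D hearts were set against controls of which 2 had Esr1 at transgenic levels. Egr3 read 2554, 3061 and 2215 in transgenic arrays and 2254, 2312 and 393 in controls. Control replicates 8 and 9 lay among the transgenic arrays and replicate 10 with the early controls. Ier5 read 16209, 16976 and 15102 against 7786, 13030.0 and 5698, with no overlap, and stood at 0.95 on the log2 scale (SE 0.28, unadjusted p = 0.00188 and adjusted p = 0.656 in limma). Ier2 (0.49, SE 0.25) and Ier3 (0.57, SE 0.37) also had no overlap between groups. No member was called, and 0% of all genes were, while 1 member had an unadjusted p under 0.05. With replicates 8 and 9 left out among the 6, replicate 10 is the only late control, assumed to vary like the other groups, and Egr3 (2.62) and Ier5 (1.49) were called (background 2.23%). That fit also called 3 of 10 fibroblast markers higher, where 0 were with all arrays, and their part in the members' values was not tested. It called 1 AP-1 gene, 1 Egr1-bound gene and 3 further immediate early genes higher, with 1 of the latter and 1 switching factor lower. The summed fibroblast signal was 502117 to 523659 in the transgenic arrays and 350846 to 591390 in the 3 controls.

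Late MKK7D controls against early ones gave Egr3 at 1.97 (SE 0.82), Egr2 at 1.71 (SE 0.82) and Btg2 at 0.94 (SE 0.36), with 0 members called and 0.0792% of all genes. Egr3 stood at 0.10 there without the 6 arrays. The early MKK7D controls differed from the shared female controls in no called member (1.5% of genes), with Nr4a1 at -0.98 (SE 0.43). The MKK7D change, late against early, was called for no member (0.0158% of genes), and Btg2 stood at -1.39 (SE 0.50).

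**Figure D3:**
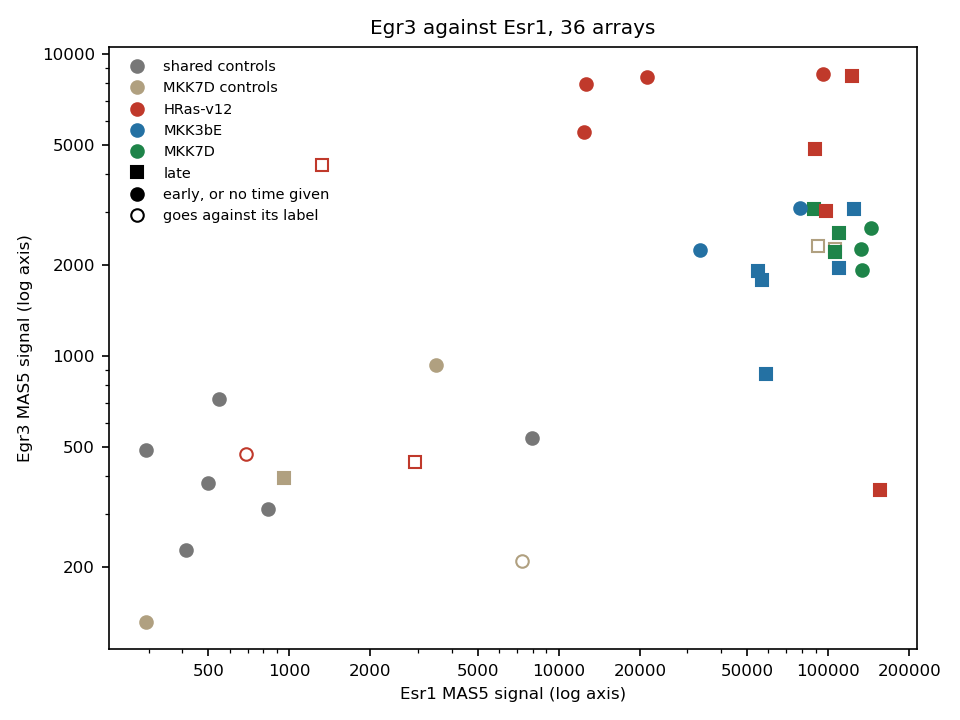
MAS5 signal of Egr3 against that of Esr1 on each of 36 arrays (both axes log); colour is the line, squares are late arrays, open symbols are the 6 arrays that go against their labels. The late MKK7D control arrays with Esr1 at 106402 and 91291 have Egr3 at 2254 and 2312, and HRas-v12 male late replicate 4 has the highest Esr1 (155949) with Egr3 at 361.

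The contrast between lines that stood out was that of Ier5. The early MKK7D change was therefore tested against the early HRas-v12 change, a comparison added after the data were seen, with each line set against its own controls. The log2 change of Ier5 was 1.46 higher in MKK7D (SE 0.34, limma adjusted p = 0.0165), and was the 1 member called (2.92% of all genes were called higher). Ier3 (-0.95, SE 0.46) and Egr1 (-1.48, SE 0.80) stood lower in MKK7D and Egr3 at -0.34 (SE 1.02), none called. With the mean of all probe sets of a gene Egr3 stood at 0.18. Leaving out the 6 arrays leaves 1 HRas-v12 early female. Ier5 then stood at 1.33, Egr1 at -2.69 and Ier3 at -1.46. With all arrays, the difference on the second Ier5 probe set was 0.54. The Ier5 call ended without MKK7D control early replicate 3 or transgenic replicate 5, and with the mean of all probe sets of a gene. The same comparison late gave Ier5 at 1.11 (SE 0.34) and 0 members called, with 0% of all genes.

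**Figure D4:**
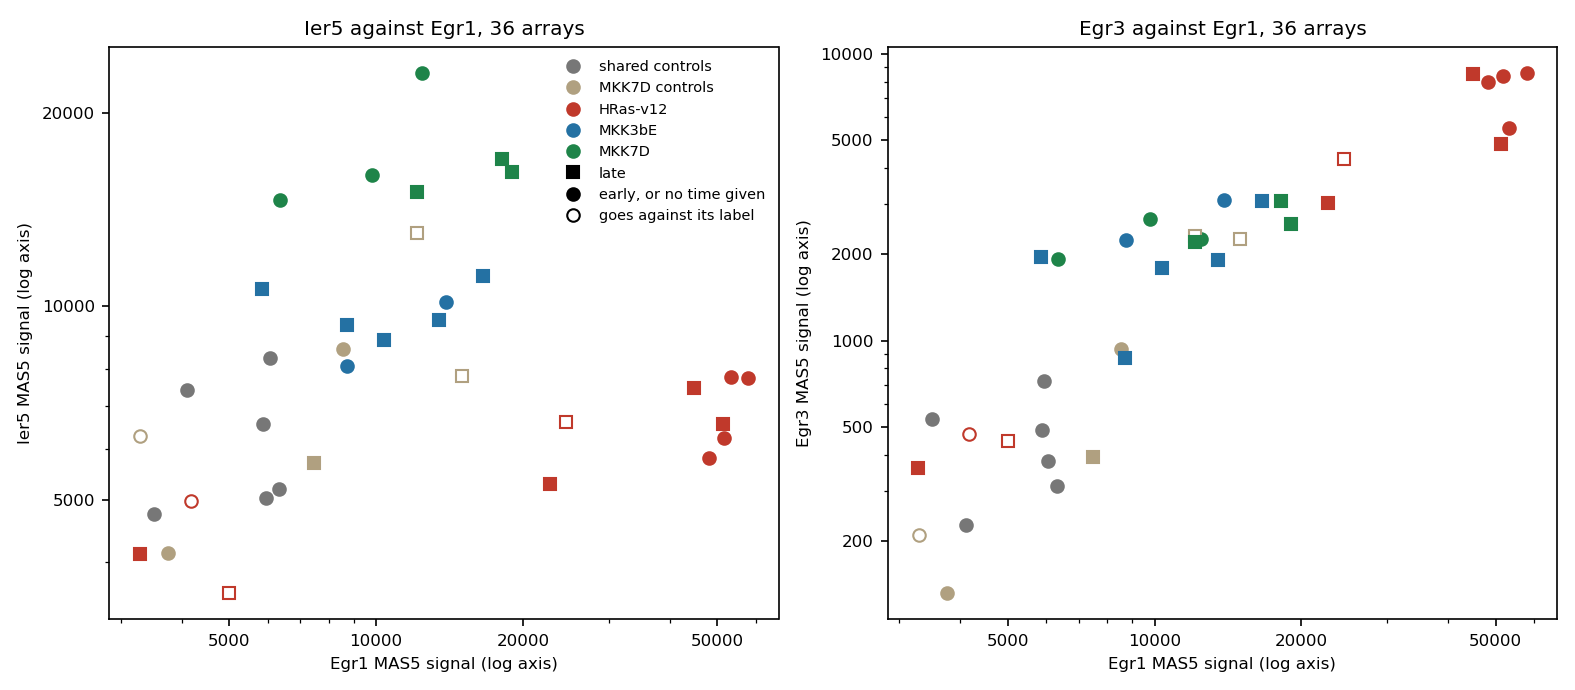
MAS5 signal of Ier5 (left) and of Egr3 (right) against that of Egr1 on each of 36 arrays, all axes log; colours, squares and open symbols as in the plot of Egr3 against Esr1. HRas-v12 arrays reach the highest Egr1 signals with Ier5 at control level (at most 7758), MKK7D transgenic arrays have Ier5 from 14668 to 23101 at lower Egr1, and Egr3 and Egr1 correlate at 0.91 over the 36 arrays.

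Over the 36 arrays, with group means left in and on the brightest probe sets, Ier5 correlated less with the other 7 members than they did among themselves. Pearson correlations of log2 values among the 7 others ran from 0.61 to 0.92, with Egr2 and Egr3 at 0.92, Egr1 and Egr3 at 0.91 and Egr1 and Ier2 at 0.89. Ier5 correlated with the others at 0.22 (Egr1) to 0.56 (Btg2). Within groups, after group means were removed, Ier5 correlated with them at 0.51 (Nr4a1) to 0.78 (Egr2). That lies inside the range of the other pairs, 0.48 (Ier3 and Btg2) to 0.90 (Egr1 and Ier2), so Ier5 did not stand apart there. These arrays share groups and scaling, so the values describe this set only.

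The genes most like each member over the 36 arrays were named by the same measure. Nearest to Egr1 were Dusp6, the cytoplasmic ERK phosphatase (0.941), Klhl6 (0.935) and Cspg4 (0.931). Egr3 was nearest to Ptgfrn (0.941), Col8a1 (0.928) and Loxl1 (0.919), and Egr2 to Egr3 (0.916), Rcn3 (0.904) and Ptgfrn (0.902). Ier2 was nearest to Egr1 (0.895), Abi2 (0.882) and Mical2 (0.872), and Ier3 to B4galt5 (0.917), P4hb (0.908) and Cttn (0.896). For Ier5 they were the deubiquitinase gene Otud1 (0.881), Aopep (0.862) and Fosl2 (0.852). Btg2 was nearest to Tubb2a (0.899), Uck2 (0.88) and Azin1 (0.874), and Nr4a1 to Sertad1 (0.852), the AP-1 gene Junb (0.824) and Cdc42ep5 (0.817).

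Egr2, Egr3, Btg2 and Ier5 have further probe sets. The second Egr2 probe set stood at 3.28 on the log2 scale in early HRas-v12 hearts, beside 2.60 for the brightest, and the second Btg2 probe set at 1.47 beside 1.41. In early MKK7D hearts the second Ier5 probe set stood at 1.06 beside 1.53, in early HRas-v12 hearts at 0.52 beside 0.07 and in late HRas-v12 hearts at 0.58 beside -0.17. The dimmest Ier5 probe set lay below the filter, at 27.3 to 932 over all arrays, and stood at -0.61 in early MKK7D hearts. The second Egr3 probe set, at 129 to 1278, did not follow the first: it stood at -0.13 in early HRas-v12 hearts, 0.53 in early MKK3bE hearts and 0.58 in early MKK7D hearts. In late hearts it stood at 0.18 in HRas-v12, 0.06 in MKK3bE and -0.08 in MKK7D.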

How the data were processed

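Total RNA of left ventricle was hybridised to Affymetrix whole-genome mouse arrays. The deposited values are probe set intensity signals on a linear scale, made by the authors with MAS5 per the submitters' processing notes. Its version and settings were not given in the sources used here. The trimmed means of the arrays average 2500 and medians lie at 593.5 to 798.6. Whether 1 scaling factor per array had been applied was not checked for each array. The number of arrays limits the precision. Of 45101 probe sets 34958 name 1 gene, 932 several and 9211 none.

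The deposited signals were turned into log2(signal + 32), which understates changes of dim genes. The upper 60% of probe sets by mean were kept, then the brightest per gene. A fit of 13 group means over all 36 arrays was made in limma 3.58.1 (R 4.3.3, eBayes with trend), with Benjamini-Hochberg adjusted p-values over all 12627 genes tested and calls under 0.05. For groups with both sexes, the female and the male difference were averaged. The script was tested on simulated data.

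The 8 members and the gene lists were chosen with earlier results of these data known. Also named are, per member, the 3 genes most correlated with it and, per list and comparison against control, up to 2 called genes of smallest adjusted p. Alternatives were the filter, the pseudocount, quantile normalization, the mean of probe sets, fewer groups, a replicate block, array weights, 6 arrays left out, and each array left out. Replicate numbers did not pair the arrays: over 57 same-numbered pairs the correlation of deviations had a median of -0.005, 7 pairs being over 0.1. The comparisons of the MKK7D with the HRas-v12 change were added after the data were seen.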

Additional observations from a re-analysis of the deposited data

Results flagged for a closer look

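The early change of Ier5 differed between the MKK7D and the HRas-v12 line by a test of the difference itself, with a log2 difference of 1.46 (SE 0.34, limma adjusted p = 0.0165), in a comparison added after the data were seen. Over the 9 other settings that used the same arrays or left out 6, the value ran from 1.00 to 1.54 and the adjusted p from 0.00201 to 0.0909, the mean of all probe sets of a gene being the 1 setting that ended the call. On the brightest probe set all 3 early MKK7D arrays lay above their controls, and none of the 5 early HRas-v12 arrays lay above the highest shared control. On the second Ier5 probe set 2 of those 5 did, and the difference was 0.54. The cause of the difference was not tested.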

How the results depend on the processing

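Counts of members called (adjusted p under 0.05 in limma) rested on few arrays and on how the spread was estimated, and the cause of each shift was not tested. Without the 6 arrays, the HRas-v12 early females, HRas-v12 late males and late MKK7D controls are 1 array each. None of the 19 called member changes turned its direction under any setting. Of all 152 member changes 60 turned under at least 1, all of them uncalled, among them, with the mean of probe sets Ier5 in late HRas-v12 (-0.17 to 0.21) and Egr3 between MKK7D and HRas-v12 early (-0.34 to 0.18), and with array weights Ier2 in late MKK3bE (0.03 to -0.09). Early HRas-v12 had 7 of 8 called under every setting tried but the replicate block (6, without Ier2), and 4 to 7 with 1 array left out. Without the 6 arrays the count was 1 for late HRas-v12 (2 with all arrays), 4 for early MKK3bE (0), 4 for early MKK7D (2), 2 for late MKK7D (0), 7 for HRas-v12 late against early (2), 2 for HRas-v12 against MKK3bE early (0), 2 for the late HRas-v12 difference between sexes (0), 1 between the control sets (0), and 3 early (1) and 1 late (0) for the MKK7D against the HRas-v12 change. With array weights it was 3 for early MKK3bE, 4 for early MKK7D, 2 for the MKK7D change late against early (0), 3 for HRas-v12 against MKK3bE late (1), 3 for the late sex difference, 5 for late against early MKK7D controls (0) and 1 for the late MKK7D against HRas-v12 change. With only the groups compared it was 0 for late HRas-v12, 4 for early MKK3bE, 5 for early MKK7D and 0 for HRas-v12 late against early. Without a filter it was 2 for late MKK3bE (4) and 1 for early MKK7D, with quantile normalization 1 for early MKK7D, and with the mean of probe sets 0 for the early MKK7D against HRas-v12 change.

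Replicate numbers do not pair the arrays. With a replicate block the members called numbered 0 for late HRas-v12, 0 for late MKK3bE and 0 for HRas-v12 late against early, and the genes called 1840, 0 and 175 for early HRas-v12, late HRas-v12 and early MKK3bE (4267, 1212 and 797 without it), 194 for late MKK3bE (1320) and 209 for HRas-v12 late against early (1463).

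With 1 array left out, members called were 0 to 4 for late HRas-v12, 0 to 3 for late MKK3bE, 0 to 3 for early MKK7D, 0 to 5 for HRas-v12 late against early, 0 to 1 for HRas-v12 against MKK3bE late, 0 to 5 for the early sex difference and 0 to 3 for the early MKK7D against HRas-v12 change.

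Genes called moved too. Without the 6 arrays they numbered 158 for late HRas-v12, 2079 and 2581 for early and late MKK3bE, 124 and 430 for early and late MKK7D (17 and 0 with all arrays) and 3301 for HRas-v12 late against early. Array weights gave 2027, 2058, 2878, 736 and 52 for late HRas-v12, early and late MKK3bE and early and late MKK7D, and only the groups compared gave 0, 1284, 2256 and 372 for the first 4 of these and 27 for HRas-v12 late against early. For early MKK7D the upper 40% of probe sets gave 27 and the mean of probe sets 53. In the other comparisons the settings gave, against the count with all arrays, 1 to 556 genes for HRas-v12 against MKK3bE early (225), 182 to 2177 late (498), 0 to 275 for the early sex difference (140), 0 to 1238 for the late one (0), 2 to 63 between control sexes (4), 21 to 618 between the control sets (189), 1 to 2551 between the MKK7D controls (10), 1 to 51 for MKK3bE late against early (1), 0 to 2 for its sex difference (1), 2 to 373 for the MKK7D change late against early (2), and up to 2028 early (584) and 616 late (0) for the MKK7D against the HRas-v12 change. Quantile normalization moved the median of all genes by at most 0.06. Groups of 2 or 3 arrays limit what could be called.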
